A study of Capra hircus with 6 samples.

Results

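ACTB, ACTG2, TPM2, CALD1 and VIM encode filament proteins that give a fibroblast its shape and its pull, and each was counted in goat (Capra hircus) fetal fibroblasts with and without a long exposure to a nanomaterial. The genes were taken by symbol, which gave 5 of the 11374 protein-coding genes of the gene table. Circular RNAs (circRNAs) whose annotated host is 1 of the 5 genes were added, which gave 9 of 3503 circRNAs. Exposed cells were kept for 10 weeks in 0.5 µg/mL GO-AgNP, in which silver nanoparticles sit on graphene oxide, with a passage every few days. Control cells are labelled only as control, at a dose of 0 µg/mL. Both groups are fetal fibroblasts labelled with an age of 50 days, and each has 3 libraries of ribosomal RNA-depleted total RNA. Nothing in the labels ties the 3 libraries to separate cultures or animals, so the p-values measure the spread between these libraries, which may be technical.

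Actin monomers polymerise into filaments that carry tension in fibroblasts. Beta-actin, from ACTB, is the main cytoplasmic isoform, and gamma-2 actin, from ACTG2, is the isoform of enteric smooth muscle. Beta-tropomyosin, from TPM2, lies along the filament and controls which proteins reach it, and caldesmon, from CALD1, binds actin, tropomyosin and calmodulin and restrains myosin. Vimentin, from VIM, is not an actin-binding contractile protein but the subunit of the intermediate filaments of mesenchymal cells. ACTG2, TPM2 and CALD1 belong to the contractile proteins that fibroblasts share with smooth muscle.

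The gene table held 155452 to 218493 reads per GO-AgNP library and 203786 to 245958 per control library, so each gene rests on few reads. A gene without a symbol took 30.5% to 47.5% of the GO-AgNP reads and 3.51% to 14.5% of the control reads. Values below are CPM, gene reads relative to the library total scaled by TMM, a method that sets the bulk of genes equal between libraries. ND6, a mitochondrial gene on the strand opposite to most others, had 13.7 to 96.4 times the reads of COX1 across the 6 libraries, and the strand setting of the counting is not given in the sources used here. A difference in counted reads may therefore not be a difference in the gene's own mRNA, and whether it is was not tested. The actins have nearly identical coding sequences, as do the tropomyosins in part, and how reads shared between such genes were counted is not given either, so the split among them is uncertain.

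All 5 genes had more scaled reads in GO-AgNP cells, by 2.01-fold for VIM up to 5.33-fold for ACTG2. Each passed an edgeR adjusted p of 0.05 over 2148 tested genes, of which 24.9% passed in this direction and 51.6% in either. For each gene every GO-AgNP library lay above every control library, as it did for 27.5% of tested genes, and 58.8% had groups that did not overlap in either order. Their log2 fold changes lay at the 74.5th (VIM), 77.5th (ACTB), 84.4th (CALD1), 86.8th (TPM2) and 93.9th (ACTG2) percentile of all tested genes. ACTG2 passed the low-count filter only through its GO-AgNP reads, so its call and percentile are a description. In whole cultures, more expressing cells and more RNA per cell cannot be told apart.

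ACTB, the cytoplasmic actin often used to normalise other genes, had 137, 126 and 119 reads in GO-AgNP libraries and 101, 94 and 95 reads in control libraries. On the scaled level this was 888, 902 and 759 CPM in GO-AgNP libraries and 399, 316 and 435 CPM in control libraries. The libraries of a group lay close together, and the lowest GO-AgNP library was well above the highest control library. The means were 849.7 ± 78.4 CPM in GO-AgNP cells and 383 ± 61.1 CPM in control cells (SD, n = 3 each), a log2 fold change of 1.15 ± 0.19 SE (edgeR adjusted p = 3.17e-05), or 2.23-fold. As a plain share of gene reads ACTB took 0.0627% to 0.0811% in GO-AgNP libraries and 0.0382% to 0.0496% in control libraries, again without overlap. No other RefSeq gene lies within 1 kb of it in assembly ARS1.2.

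ACTG2, the smooth muscle actin, was the least counted of the 5 and changed most. It had 38, 13 and 20 reads in GO-AgNP libraries and 7, 7 and 8 reads in control libraries, which is 246, 93.0 and 128 CPM in GO-AgNP cells and 27.6, 23.5 and 36.6 CPM in control cells. GO-AgNP replicate 1 stood above the other exposed libraries, while the controls were all low. The means were 155.6 ± 80.3 CPM in GO-AgNP and 29.2 ± 6.70 CPM in control cells (SD, n = 3 each), and the log2 fold change was 2.41 ± 0.49 SE (edgeR adjusted p = 0.000297). Without GO-AgNP replicate 1 it was 1.93 (edgeR adjusted p = 0.00963), and without replicate 2, the lowest exposed library, 2.81. Every control count was below the minimum of 10 in the low-count filter, so ACTG2 was tested only through the GO-AgNP libraries, where it is high. With no filter the log2 fold change was 2.15 ± 0.51 SE (edgeR adjusted p = 0.000434). On the 71 GO-AgNP and 22 control reads alone, the scaled ratio was 5.51 with a 95% exact counting interval of 3.38 to 9.34, which covers counting error only. A RefSeq pseudogene, LOC108637134, overlaps ACTG2 or lies within 1 kb of it, so some of these reads may belong to the pseudogene.

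**Figure D1:**
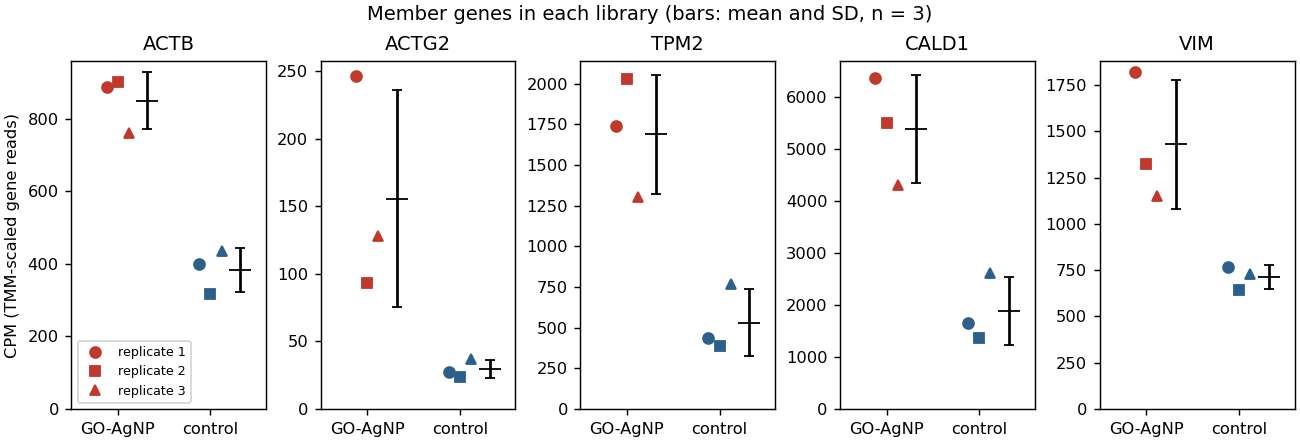
Scaled level in CPM (linear axis from 0) of ACTB, ACTG2, TPM2, CALD1 and VIM in the 3 GO-AgNP (left) and 3 control libraries (right), with symbols for the replicates and the mean with SD beside them. In every panel the GO-AgNP points lie above the control points; ACTG2 ranges most widely among exposed libraries, from 93.0 to 246 CPM, and control replicate 3 is the highest control for TPM2 and CALD1.

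TPM2, beta-tropomyosin, had 268, 283 and 204 reads in GO-AgNP libraries and 111, 115 and 168 reads in control libraries. The scaled levels were 1737, 2025 and 1302 CPM in GO-AgNP and 438, 386 and 769 CPM in control libraries. Control replicate 3 was the highest control but stayed below all exposed libraries. TPM2 averaged 1688 ± 364.2 CPM in GO-AgNP and 531 ± 207.5 CPM in control cells (SD, n = 3 each), 3.20-fold higher (log2 1.68 ± 0.22 SE, edgeR adjusted p = 2.26e-06). Without control replicate 3 the log2 fold change was 1.96, and without control replicate 2 it was 1.40. CA9 lies within 1 kb of TPM2 in the RefSeq annotation.

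CALD1, caldesmon, was the most counted of the 5 genes, with 985, 769 and 675 reads in GO-AgNP libraries and 421, 406 and 574 reads in control libraries. That is 6383, 5504 and 4308 CPM in GO-AgNP and 1662, 1363 and 2626 CPM in control libraries, and control replicate 3 was again the highest control. The means of 5398 ± 1041 CPM in GO-AgNP and 1884 ± 660.1 CPM in control cells (SD, n = 3 each) differed by a log2 of 1.52 ± 0.19 SE (edgeR adjusted p = 1.75e-06), or 2.87-fold. CALD1 took 0.420% to 0.495% of all gene reads in GO-AgNP and 0.165% to 0.282% in control libraries. TPM2 reads per CALD1 read were 0.272, 0.368 and 0.302 in GO-AgNP and 0.264, 0.283 and 0.293 in control libraries, which overlap (exact two-sided permutation test p = 0.4).

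VIM, vimentin, changed least. Its reads overlapped before scaling, at 281, 185 and 180 in GO-AgNP and 194, 191 and 159 in control libraries. Scaled, it had 1821, 1324 and 1149 CPM in GO-AgNP and 766, 641 and 727 CPM in control libraries, which do not overlap. The means were 1431 ± 348.6 CPM in GO-AgNP and 711.6 ± 63.8 CPM in control cells (SD, n = 3 each), with a log2 fold change of 1.01 ± 0.18 SE (edgeR adjusted p = 7.84e-05). GO-AgNP replicate 1 was the highest library, and the log2 fold change without it was 0.82.

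How large these differences are depends on the scaling. With no factor beyond the library total, the median log2 fold change of all tested genes moved from -0.02 to -0.47, and 15.2% of tested genes passed as higher (51% in either direction). Then ACTG2 (log2 1.91), TPM2 (1.23), CALD1 (1.06) and ACTB (0.70, edgeR adjusted p = 0.0206) still passed, and VIM did not (0.52 ± 0.22 SE, edgeR adjusted p = 0.0536). In a fit of genes without a RefSeq neighbour scaled on their own, where 23.8% of 567 genes passed as higher (49.2% in either direction), CALD1 was at 1.01, ACTB at 0.65 (edgeR adjusted p = 0.0111) and VIM at 0.50 (edgeR adjusted p = 0.0323). This fit was chosen after the data were seen and holds neither TPM2 nor ACTG2.

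**Figure D2:**
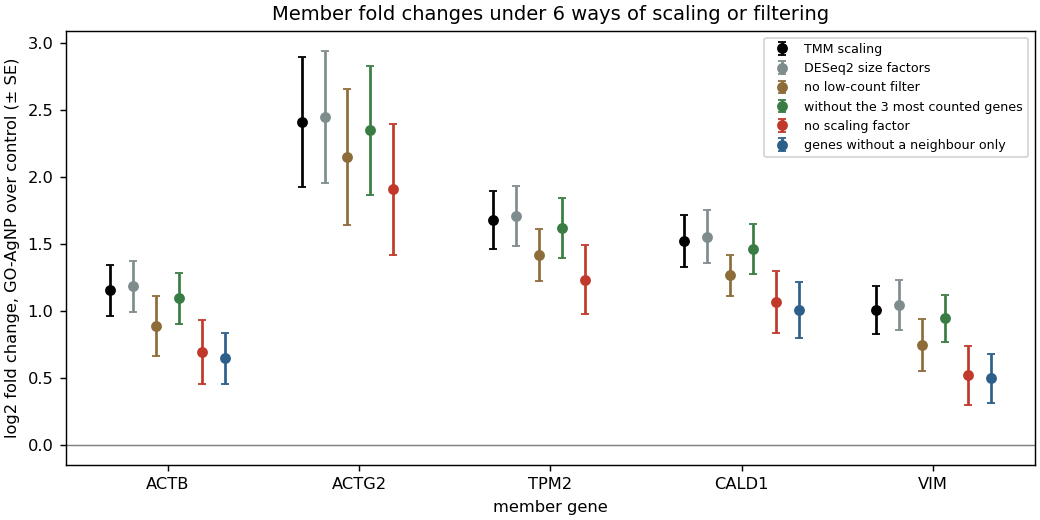
Log2 fold change of GO-AgNP over control cells with its SE for each gene (horizontal axis) under 6 ways of scaling or filtering (colours). All points lie above 0; the values fall with no scaling factor or with neighbour-free genes only, for VIM to 0.52 and 0.50 from 1.01, and ACTG2 stays highest in each fit that holds it.

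Ratios of reads within a library do not depend on scaling, and they show whether the genes moved in step. ACTG2 had 0.277, 0.103 and 0.168 reads per ACTB read in GO-AgNP libraries and 0.0693, 0.0745 and 0.0842 in control libraries. Every exposed library was above every control library. The mean log2 ratio, with 0.5 reads added to each count, was -2.54 ± 0.70 in GO-AgNP and -3.63 ± 0.14 in control cells (SD, n = 3 each), a difference of 1.10, or 2.14-fold (p = 0.1 by an exact permutation test, two-sided, which cannot go lower with 3 libraries a group, and 0.333 adjusted over the 10 pairs of genes). Without GO-AgNP replicate 1 the difference was 0.75.

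The other ratios to ACTB overlapped between the groups. TPM2 had 1.96, 2.25 and 1.71 reads per ACTB read in GO-AgNP and 1.10, 1.22 and 1.77 in control libraries (exact permutation test p = 0.2). For CALD1 these were 7.19, 6.10 and 5.67 in GO-AgNP and 4.17, 4.32 and 6.04 in control libraries (exact permutation test p = 0.2). Control replicate 3 lay among the exposed libraries in both, and the other controls lay below them. VIM per ACTB read was 2.05, 1.47 and 1.51 in GO-AgNP and 1.92, 2.03 and 1.67 in control libraries (exact permutation test p = 0.4), with no order between the groups. Of the 10 pairs, only ACTG2 to ACTB and ACTG2 to VIM separated the groups. No pair could pass 0.05, since the smallest possible p was 0.1. Ratios to ACTB other than that of ACTG2, and those between the other genes, were added after the data were seen.

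**Figure D3:**
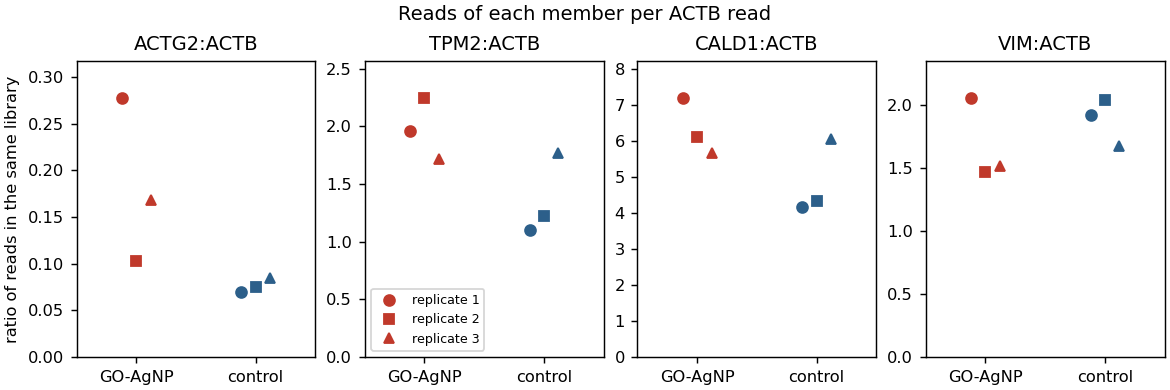
Reads of ACTG2, TPM2, CALD1 and VIM per ACTB read in the same library (linear axis from 0), for the 3 GO-AgNP (left) and 3 control libraries (right). The groups separate for ACTG2, at 0.103 to 0.277 in GO-AgNP and 0.0693 to 0.0842 in control libraries, and overlap for TPM2, CALD1 and VIM.

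The wider machinery around these genes was described with 9 lists of 165 symbols, older names included, of which 126 were in the gene table and 60 passed the low-count filter. Of these 60, 41 rose, 4 fell and 15 did not pass. Their median log2 fold change was 1.20, beside -0.02 for all 2148 tested genes, of which 24.9% rose and 26.7% fell. The 60 include the 5 genes, which all rose. Without these 5, 36 of 55 rose and 4 fell, with a median of 1.19. Counts over genes that passed the filter are a description, since a gene counted in 1 group alone can pass only when it differs. With no filter, 35 of 126 rose and 7 fell (median 0.68), beside 8.27% and 10.2% of 11374 genes (median -0.33). With no scaling factor 23 of 60 rose and 5 fell, beside 15.2% and 35.8%.

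Of 4 actin isoforms tested, all 4 rose. Besides ACTB and ACTG2 these were the other cytoplasmic actin, ACTG1, with 206, 137 and 151 reads in GO-AgNP and 107, 108 and 57 in control libraries (3.12-fold higher, edgeR adjusted p = 1.26e-06), and the vascular smooth muscle actin ACTA2. ACTA2, named after its values were seen, had 36, 60 and 55 reads in GO-AgNP and 47, 38 and 53 in control libraries. Its log2 fold change was 0.88 ± 0.29 SE (edgeR adjusted p = 0.0138). Its scaled levels overlapped, at 233, 429 and 351 CPM in GO-AgNP and 186, 128 and 242 CPM in control libraries.

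Among 9 tropomyosins, caldesmon and other thin filament proteins, TPM2 and CALD1 included, 6 rose and 3 did not pass. CNN3, an actin-binding calponin, rose 4.46-fold. TPM3, a cytoplasmic tropomyosin, was 2.88-fold higher on 36 GO-AgNP and 21 control reads, a call lost without GO-AgNP replicate 1 or any 1 control library (edgeR adjusted p 0.0747 to 0.0855), with no scaling factor (0.113) and with no filter (0.140). TPM1, also named after its values were seen, did not pass (log2 0.63 ± 0.28 SE), nor did the smooth muscle proteins SMTN (1.23 ± 0.52) and LMOD1 (0.43 ± 0.26).

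The nonmuscle heavy chain genes MYH9 and MYH10 had more scaled reads in GO-AgNP cells, and the smooth muscle one, MYH11, had fewer. Among 8 genes of myosin II and its regulators, 4 rose, 1 fell and 3 missed the threshold. MYH9, the heavy chain of nonmuscle myosin IIA, had 986, 803 and 718 reads in GO-AgNP and 301, 226 and 341 in control libraries, 4.79-fold higher (log2 2.26 ± 0.20 SE, edgeR adjusted p = 1.35e-08). MYH10, that of nonmuscle myosin IIB, rose 3.69-fold. PPP1R12A, the targeting subunit of myosin phosphatase, had a log2 fold change of 1.24 ± 0.38 SE. Its call was lost without control replicate 2 (0.96, edgeR adjusted p = 0.0803), with no filter (0.98, edgeR adjusted p = 0.0844) and with no scaling factor (0.77, edgeR adjusted p = 0.118). MYH11, the smooth muscle heavy chain, had 89, 72 and 130 reads in GO-AgNP and 409, 445 and 334 in control libraries, a log2 fold change of -1.27 ± 0.18 SE (edgeR adjusted p = 6.13e-06). MYH9 and MYH10 have no RefSeq gene within 1 kb, while MYH11 either has one or was not placed on RefSeq. Whether the reads counted for MYH11 are its own mRNA was not tested.

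Among 17 crosslinkers and membrane linkers, 15 rose and 2 did not pass. They included moesin (MSN, 4.37-fold), ezrin (EZR, 3.35-fold) and radixin (RDX), which tie filaments to the membrane, and palladin (PALLD, 3.12-fold), a bundling protein. RDX had 17, 12 and 19 reads in GO-AgNP and 0, 0 and 7 in control libraries (10.6-fold, log2 3.41 ± 0.78 SE), a call lost by the DESeq2 Wald test (adjusted p = 0.0863). RDX passed the low-count filter only through the GO-AgNP libraries, where it is high, so its call is a description. With no filter its log2 fold change was 3.14 ± 0.69 SE (edgeR adjusted p = 0.000134). With no scaling factor MSN, EZR and PALLD kept log2 fold changes of 1.65, 1.28 and 1.20. Among 7 focal adhesion genes 4 rose and 3 missed the threshold. Zyxin (ZYX), recruited to adhesions under tension, rose 5.29-fold. Integrin beta-1 (ITGB1, 1.95-fold) and talin (TLN1, 1.52-fold) had calls that ended with no scaling factor, at log2 0.47 and 0.13. With no filter both calls were lost too, at 0.70 and 0.34 (edgeR adjusted p = 0.153 and 0.314). They also ended without control replicate 1 or 2, at 0.86 and 0.70 for ITGB1 and 0.53 and 0.57 for TLN1, without GO-AgNP replicate 1 for ITGB1 (0.59) and without control replicate 3 for TLN1 (0.47).

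The proteins that build and dismantle filaments were mixed, and most had too few reads to be tested. The 6 nucleation genes split into 2 that rose, 2 that fell and 2 that missed the threshold. DAAM1, a formin, had 1, 0 and 2 reads in GO-AgNP and 10, 22 and 11 in control libraries (edgeR adjusted p = 0.00570), a scaled GO-AgNP to control ratio of 0.119 with a 95% exact counting interval of 0.0236 to 0.372. It passed the low-count filter only through the control libraries, where it is high, so its call is a description. With no filter its log2 fold change was -3.20 ± 0.88 SE (edgeR adjusted p = 0.00324). The calls of ARPC1B and FMNL3 (higher) and FHOD1 (lower, edgeR adjusted p = 0.0483) each ended in some fits that left out 1 library and in some fits of all libraries. ARPC1B had an edgeR adjusted p of 0.0534 without GO-AgNP replicate 2 and 0.0501 without control replicate 3, and 0.0702 with no scaling factor. FMNL3 had edgeR adjusted p-values of 0.185 with no scaling factor and 0.176 with no filter, a DESeq2 Wald adjusted p of 0.0607, and 0.0691 to 0.167 in edgeR without GO-AgNP replicate 1 or 2 or control replicate 2 or 3. FHOD1 had 0.0577 with DESeq2 size factors and 0.0932 with a mean count of at least 10 in edgeR, 0.111 by the DESeq2 Wald test, and 0.151 to 0.241 in edgeR without GO-AgNP replicate 2 or 3 or control replicate 2. Of 2 turnover genes WDR1, a cofilin cofactor, rose 2.89-fold and COTL1 did not pass (log2 0.54 ± 0.51 SE).

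Of 3 intermediate filament and lamin genes tested, VIM included, all 3 rose. PLEC, the linker between vimentin and actin filaments, had 502, 364 and 386 reads in GO-AgNP and 174, 161 and 243 in control libraries (3.58-fold, edgeR adjusted p = 3.62e-07), and LMNA, the nuclear lamin A gene, rose 4.50-fold. Both were larger than the 2.01-fold of VIM, a difference that was not tested. Serum response factor and its coactivators switch on actin genes when free actin monomer runs low. The 4 genes tested from this and the YAP programme were 2 that rose, 1 that fell and 1 that missed the threshold. The counted reads of the coactivators differed in opposite directions. MRTFA had 28, 33 and 21 reads in GO-AgNP and 11, 15 and 8 in control libraries (4.14-fold higher, edgeR adjusted p = 0.000293). MRTFB had 2, 2 and 0 reads in GO-AgNP and 49, 46 and 48 in control libraries (log2 -4.31 ± 0.59 SE, edgeR adjusted p = 4.64e-06). It passed the low-count filter only through the control libraries, where it is high, so its call is a description. With no filter the log2 fold change was -4.56 ± 0.60 SE (edgeR adjusted p = 4.44e-12). The scaled GO-AgNP to control ratio was 0.0478, with a 95% exact counting interval of 0.0128 to 0.125. Neither MRTFA nor MRTFB was among the genes placed on RefSeq without a neighbour within 1 kb, so each either has such a neighbour or was not placed. CCN2, a matricellular target of both programmes, rose 2.50-fold. CCN1, from the same list and named after its values were seen, did not pass (log2 0.31 ± 0.46 SE, edgeR adjusted p = 0.598).

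**Figure D4:**
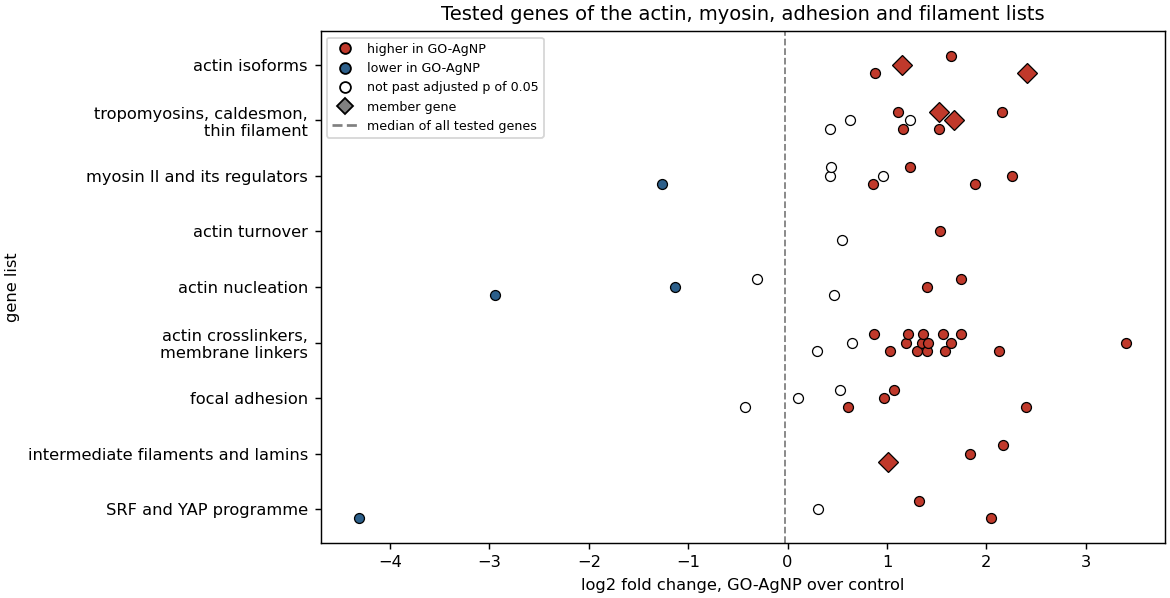
Log2 fold change of GO-AgNP over control cells for each tested gene of the 9 lists (rows), coloured by whether it was higher, lower or not past an edgeR adjusted p of 0.05, with diamonds for ACTB, ACTG2, TPM2, CALD1 and VIM and a dashed line at the median of all tested genes (-0.02). Points to the right of the line fill the crosslinker list, where 15 of 17 rose, and the lower genes are MRTFB, DAAM1, MYH11 and FHOD1.

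The labelled cell type was checked against marker genes. Of 12 fibroblast markers 10 were counted in both groups, with summed levels of 17704 to 21312 CPM in GO-AgNP and 10885 to 12655 CPM in control libraries. The markers did not move as a class. Of 6 tested, 4 rose (the collagens COL1A1 and COL1A2, DCN and NT5E), while fibronectin, FN1 (log2 -0.30 ± 0.15 SE), and the growth factor receptor PDGFRA (-0.91 ± 0.43) were below 0 without passing. Without COL1A1 and COL1A2 the sum was 2795 to 3739 CPM in GO-AgNP and 3530 to 3848 CPM in control libraries, which overlap. The 8 smooth muscle markers summed to 1516 to 2087 CPM in GO-AgNP and 2052 to 2311 CPM in control libraries, an order set by MYH11. Without MYH11 the sum was 939.6 to 1257 CPM in GO-AgNP and 557 to 782 CPM in control libraries. These partial sums were chosen after the values were seen. Of 5 tested smooth muscle markers, MYH11 fell, ACTA2 and TAGLN (log2 1.11 ± 0.24 SE) rose, and SMTN and LMOD1 were above 0 without passing. Desmin (DES) and MYOCD had 0 GO-AgNP reads and 7 and 2 control reads. Of 5 epithelial markers the keratins KRT19 and KRT8 had 36 and 14 reads in GO-AgNP and 0 in control libraries, and the summed level was 84.2 to 153 CPM in GO-AgNP libraries. The 5 leukocyte markers, of which 3 were counted, summed to 0 to 57.3 CPM in GO-AgNP and 23.7 to 77.8 CPM in control libraries, the 5 endothelial ones, of which CDH5 alone was counted, to 0 to 25.5 and 27.5 to 36.9 CPM, and the 7 skeletal muscle ones, of which 4 were counted, to 25.9 to 93.0 and 11.8 to 50.4 CPM. The part of other cells in the differences of the 5 genes was not tested.

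Across the 6 libraries the 5 genes followed each other, with Pearson correlations of log2 CPM from 0.88 (ACTG2 with TPM2) to 0.99 (TPM2 with CALD1). These are descriptions over 6 libraries that share the difference between groups and the scaling. Among the 1760 other named genes tested, the closest to ACTB were TFPT, MYH9 and VEGFA (r of 0.999, 0.998 and 0.996). Closest to ACTG2 were EHBP1L1, GANAB and SEMA3F (0.991, 0.988 and 0.980), and GANAB, a subunit of glucosidase II, shared its pattern of 39, 14 and 23 reads in GO-AgNP and 5, 5 and 4 in control libraries. Closest to TPM2 were MARCHF6, EIF5B and COL1A2 (0.995, 0.992 and 0.991), to CALD1 PLEC, COL1A2 and NDRG4 (0.994, 0.991 and 0.990), and to VIM RBM5, AHNAK and PRSS23 (0.998, 0.996 and 0.994). COL1A2, the alpha-2 chain of type I collagen, thus stood near both TPM2 and CALD1. Such values are not rare here, since 52 genes for TPM2 and 110 for ACTB reached 0.95.

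Circular RNAs form when a splice site joins back to an upstream one, and reads over that junction count them. The 9 circRNAs of these hosts were 4 of CALD1, 2 of ACTB, 2 of VIM, 1 of ACTG2 and none of TPM2. A host had a median of 1 circRNA, and 5.90% of 2051 hosts had at least the 4 of CALD1. None of the 9 was seen in both groups, 4 being seen in GO-AgNP and 5 in control libraries, but 92.7% of all 3503 circRNAs were also seen in 1 group only. No circRNA of the 5 genes reached the 22 that could be tested with edgeR. Coordinates below count from 1 as deposited, with no build given in the sources used here.

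The most counted of them in exposed cells was a 147-base circRNA antisense to VIM (chromosome 13, 31011220 to 31011366, minus strand), with 0, 6 and 4 junction reads in GO-AgNP and 0, 0 and 0 in control libraries. GO-AgNP replicate 1 had none, so the groups overlap. The other VIM circRNA, sense overlapping (chromosome 13, 31018400 to 31018675, plus strand), had 0, 0 and 0 reads in GO-AgNP and 1, 0 and 3 in control libraries. Per junction read counted, the VIM circRNAs together gave p = 0.4 by an exact two-sided permutation test, which cannot go below 0.1 with 3 libraries a group.

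CALD1 gave 2 circRNAs to each group. A sense overlapping one with ends 23731 bases apart (chromosome 4, 21625102 to 21648832, minus strand) had no GO-AgNP reads and 0, 4 and 6 control reads. With 4287 junction reads in all GO-AgNP and 17348 in all control libraries, a count of 0 in the GO-AgNP group allows a share of up to 0.0700% of junction reads, which is above the control share, so a difference was not detectable at this depth. An intronic one (21622318 to 21622952) had 1 control read. Those of exposed cells were a sense overlapping one (21539377 to 21542234) with 1, 1 and 0 reads and an exonic one (21546711 to 21555235, predicted length 546 bases) with 1 read. The ACTB circRNAs were an antisense one on the minus strand (chromosome 25, 39659952 to 39660819), with 2 control reads, and a sense overlapping one on the plus strand (39661829 to 39662003), with 1 GO-AgNP read. ACTG2 had a single sense overlapping circRNA (chromosome 11, 10599197 to 10601974, minus strand) with 1 control read. Apart from the antisense VIM and the longest CALD1 circRNA, these rest on 1 to 4 reads each.

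Summed over the 9 circRNAs, the junction reads were 2, 8 and 4 in GO-AgNP and 4, 4 and 10 in control libraries. GO-AgNP libraries had fewer junction reads in all, 1289 to 1586 against 4807 to 6944 in control libraries. Per 1000 junction reads the sums were 1.42, 6.21 and 2.52 in GO-AgNP and 0.715, 0.576 and 2.08 in control libraries, which overlap. The means of 3.38 ± 2.51 in GO-AgNP and 1.12 ± 0.831 in control cells (SD, n = 3 each) gave a ratio of 3.01 (exact two-sided permutation test p = 0.2). The antisense VIM circRNA alone carried 10 of the 14 exposed reads. By host, the ratio was 8.94 for VIM, 2.17 for ACTB, 1.09 for CALD1 and 0 for ACTG2. GO-AgNP replicate 2 carried 8 of the 14 exposed reads. Without that library the ratio over all 9 was 1.75, while without control replicate 3 it was 5.24. In undivided reads the order turned, with a ratio of 0.778 (exact permutation test p = 0.7). With 3 libraries a group this permutation p cannot go below 0.1, so no outcome could have passed 0.05. The test thus could not show a difference of these hosts' circRNAs in either direction, nor the absence of one. The CALD1 circRNAs had 3 junction reads in GO-AgNP and 11 in control libraries.

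**Figure D5:**
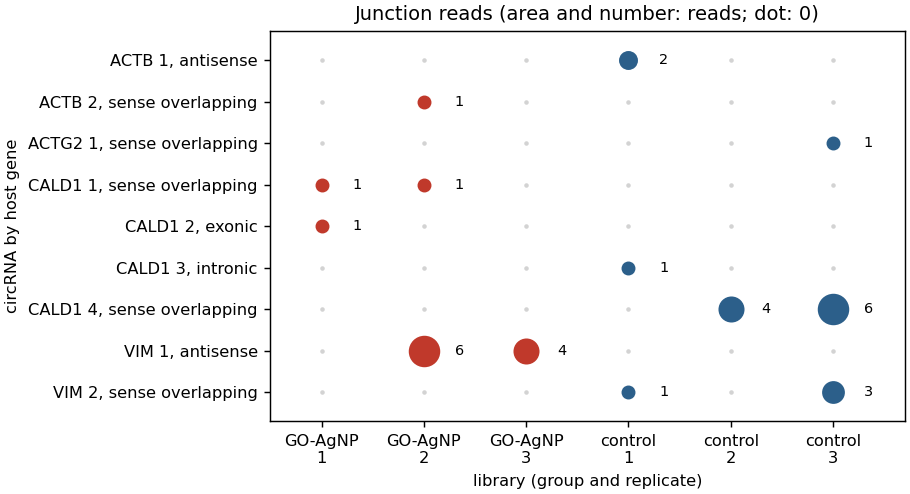
Junction reads of the 9 circRNAs hosted by ACTB, ACTG2, CALD1 and VIM (rows, numbered along each host's coordinates) in the 3 GO-AgNP (left) and 3 control libraries (right); circle area and the number give reads, and a small dot stands for 0. No row has reads in both groups, and the largest circles are the antisense VIM circRNA in GO-AgNP replicates 2 and 3 and the fourth CALD1 circRNA in control replicates 2 and 3.

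Over all 9 lists, 41 genes hosted 64 circRNAs, of which 21 were seen in GO-AgNP and 45 in control libraries and 2 in both. Their junction reads were 17, 20 and 28 in GO-AgNP and 47, 64 and 55 in control libraries. Per 1000 junction reads this was 12.04, 15.5 and 17.7 in GO-AgNP and 8.40, 9.22 and 11.4 in control libraries, so the exposed libraries were lower in reads and higher in share, which was not tested. The lncRNA table held 595 rows, and 0 of them were annotated to ACTB, ACTG2, TPM2, CALD1 or VIM.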

How the data were processed

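Libraries were stranded and built from total RNA after removal of ribosomal RNA, per the labels' protocols. The authors deposited raw counts of reads per gene, per lncRNA and per back-splice junction, per the file headers, and 18 normalized per-library columns were not used. CASAVA 1.8, BWA and hg19 stand in the submitters' processing notes, without a role. Which counter, strand setting and annotation were used is not given in the sources used here. Groups came from the labelled treatment and columns from the sample titles they carry.

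All genes entered the quasi-likelihood fit of edgeR 4.0.16 (R 4.3.3), after filterByExpr at a minimum count of 10 and TMM scaling (glmQLFit, glmQLFTest), with Benjamini-Hochberg adjustment at 0.05. An SE is the size of the log2 fold change over the root of its F statistic. Script steps used Python 3.11.15, scipy 1.17.1 and pandas 2.3.3, and the fit was checked on simulated counts. Ratios and junction sums were tested by exact permutation over 20 assignments, where the smallest p is 0.1 and 0.05 cannot be reached. The 5 genes and the 9 lists were chosen with earlier results of these data known. Genes named from a list are up to 4 called genes with the largest change whose groups do not overlap (with fewer than 2, the 2 most counted) and, for likeness, the 3 highest correlations per gene. RefSeq ARS1.2 placed 8451 genes and served only to find neighbours within 1 kb. Alternatives were other scalings and filters, DESeq2 1.42.0, the replicate number as a block, leaving out each library, and genes without a neighbour. The library depths limit precision, and intervals cover counting error only.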

Additional observations from a re-analysis of the deposited data

How the results depend on the processing

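The log2 fold changes of ACTB, ACTG2, TPM2 and CALD1 kept their direction and stayed past the threshold in every alternative that tested them, and VIM in all but 1, with no scaling factor (0.52). Leaving out each library gave 0.94 to 1.36 for ACTB, 1.93 to 2.81 for ACTG2, 1.40 to 1.96 for TPM2, 1.25 to 1.79 for CALD1 and 0.82 to 1.29 for VIM. The count of called genes, 1108, was 2106 with no filter and 279 in the neighbour-free fit of 567 genes (1106 to 1278 without 1 library). Calls on the list genes, 45 of 60, numbered 28 with no scaling factor and 16 of 31 in the neighbour-free fit (39 to 50 without 1 library). That fit holds fewer genes and scales them anew, and TPM3, PPP1R12A, ARPC1B and ITGB1 were tested in it with smaller changes and not called (ITGB1 0.45, against 0.97 over all genes). Without scaling, 29.8% of all calls were higher, against 48.2% with TMM. The ACTG2 to ACTB difference was 0.75 to 1.44 without 1 library. The junction read ratio of 3.01 reversed to 0.778 in undivided reads (1.75 to 5.24 without 1 library). The correlations of same-numbered deviations were -0.017, -0.013 and -0.034. They showed no pairing of libraries by replicate number, but with few reads per gene they could not exclude one. With the replicate block, 1041 genes and 43 list genes were called and no call on the 5 genes changed, but TPM3 (edgeR adjusted p = 0.0711), FMNL3 (0.0733) and FHOD1 (0.0762) were no longer called. Depth limits all circRNA values and most turnover and nucleation genes.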
